A study of Mus musculus with 6 samples.

Results

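The 80 genes described here encode proteins of the cytosolic ribosome and were chosen by symbol: Rpl or Rps followed by a number and at most 1 of the letters a, x or l, Rplp followed by a digit, or Rpsa, with pseudogenes left out. They are 80 of the 36699 rows of the deposited gene table. Poly(A)-selected RNA had been sequenced from A2Lox.cre mouse embryonic stem cells, a line made for inserting doxycycline-inducible transgenes. The transgene here was Flag-Lef1, and Lef1 is a transcription factor through which β-catenin acts in Wnt signalling. Both groups carried the transgene, had been maintained on FVB embryonic fibroblasts that were removed beforehand, and were collected on day 3 of embryoid body culture. In plus_Dox (3 libraries, numbered 1, 2 and 3) doxycycline was present from day 2 for 24 h, and in minus_Dox (3 libraries, numbered 1, 3 and 4) it was absent. Separate cultures are not stated for the libraries, so p-values may measure technical spread only. No group of cells without the transgene but with doxycycline is in the labels, so the drug and the transgene cannot be told apart.

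A ribosome holds 1 copy of nearly every ribosomal protein, joined to ribosomal RNA in a small subunit, which reads the mRNA, and a large subunit, which forms peptide bonds and carries a stalk that recruits translation factors. The mRNAs of these proteins are short, abundant, and typically begin with an unbroken run of C and U called a TOP motif, through which mTOR signalling and Larp1 set their translation. Pluripotent cells devote a large part of their mRNA to them.

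The table holds 1 FPKM value (fragments scaled by transcript length and library size) for each group, pooled by the authors over its 3 libraries, and no value of a single library. Values per sample and a standard deviation therefore cannot be given, the depth is unknown, and the SE printed here follows from the size of their test statistic. Lef1 itself stood at 7.56 FPKM in minus_Dox and 51.0 FPKM in plus_Dox, a 6.75-fold difference in the authors' deposited table, although this value cannot separate the transgene from the endogenous gene. All 11 markers of stem cells and epiblast had a value in at least 1 group, Dnmt3b being listed at 0 in minus_Dox as too deep, and those tested did not move together: 3 of 10 rose, 2 fell and 5 did not pass. Nanog rose from 28.6 to 110 FPKM (3.83-fold in the authors' deposited table), as did Dppa5a and Utf1. Sox2 fell from 56.2 to 30.9 FPKM (q = 2.66e-05 in the authors' deposited table), Pou3f1 fell from 36.8 to 26.1 FPKM, and Pou5f1, at 820 and 1510 FPKM, did not pass. The part of these shifts in the values of the ribosomal protein genes was not tested. Of 10 fibroblast markers, 5 reached 1 FPKM in either group. The highest was Thy1, at up to 16.6 FPKM, while Lum and Fap were near 0. The summed level of all 10 fibroblast markers was 19.2 FPKM in minus_Dox and 23.9 FPKM in plus_Dox. Without Thy1 the sum of the other 9 was 7.31 and 7.32 FPKM. Single markers among these 9 differed in both directions. Dcn was at 2.12 and 1.52 FPKM and Col1a1 at 0.888 and 1.32 FPKM, and neither passed. Whether the groups held equal amounts of fibroblast RNA was not tested.

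Runs of C and T near the start sites were read from the sequence. The windows below, from RefSeq on GRCm38.p6, hold 15 bases on each side of the start on the transcript's strand. Capitals mark the longest run of C and T. The first 5 belong to genes whose mRNA rose in plus_Dox, and the last 3 to tissue-restricted or divergent copies that did not pass the test. Where a gene has several starts, the first with a run of at least 7 is shown, so the windows illustrate such runs and do not sample them. A run can lie partly or wholly before the start, where it is not part of the mRNA.
Rpl35 (chr2:39005117-39005146, minus strand): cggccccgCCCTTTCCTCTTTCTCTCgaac
Rps9 (chr7:3704026-3704055, plus strand): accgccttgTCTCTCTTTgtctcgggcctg
Rpl27a (chr7:109519180-109519209, plus strand): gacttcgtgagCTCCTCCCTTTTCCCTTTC
Rpl38 (chr11:114668565-114668594, plus strand): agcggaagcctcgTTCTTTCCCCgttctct
Rplp2 (chr7:141447636-141447665, plus strand): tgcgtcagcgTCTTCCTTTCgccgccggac
Rpl39l (chr16:10170213-10170242, plus strand): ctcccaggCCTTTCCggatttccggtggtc
Rpl10l (chr12:66284387-66284416, minus strand): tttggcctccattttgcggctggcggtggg
Rpl3l (chr17:24727811-24727840, plus strand): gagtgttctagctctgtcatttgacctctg
Rpl10l and Rpl3l have no run of 7 or more in this window. The run of Rpl39l begins at position -7 from the start and lies wholly before it. Rps27l, a divergent copy that did not pass either and whose window is not shown, has a run of 9. That run begins at position -12 and also lies before the start.

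Of the 80 genes, 59 matched a RefSeq promoter. Runs of at least 7 C or T were read on the transcript's strand in the 30-base window. They were found at 32 of these 59 genes (54.2%), against 21.9% of the other tested genes. Counted by promoter entry, they were in 46.5% of the family's 71 entries and in 18.6% of all 32851. Runs on either side of the start count, so these are not shares of TOP motifs. The letters CTTTC were in the same window of 27.1% of the ribosomal protein genes and 4.2% of the other tested genes. CGGAAG, a core recognised by ETS factors, was present on either strand of the 300-base promoter in 69.5% of them and in 31.5% of the other tested genes. The gene-wise shares count a gene once if any of its starts has the letters, which favours genes with several starts. Among tested genes the 24 with a run had a median log2 fold of 0.61 and 14 rose, and the 19 without one had a median of 0.58 and 9 rose. These medians lay close together, and their difference was not tested.

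Ribosomal protein mRNAs were among the most abundant in both groups. Leaving out 4 divergent copies, the 56 tested genes ranged from 306 FPKM (Rpl29) to 4398 FPKM (Rps15a) in minus_Dox, with a median of 1916 and quartiles of 1533 and 2340. In plus_Dox they ranged from 401 FPKM (Rpl29) to 5860 FPKM (Rps27), with a median of 2780. Most levels lay close together, since the upper quartile in minus_Dox was 1.53 times the lower. Of 61 tested protein-coding rows above 1000 FPKM in minus_Dox, 50 were ribosomal protein genes. Together the 60 tested genes made up 24.6% of the summed FPKM of 14171 tested protein-coding rows in minus_Dox and 28.5% in plus_Dox. Among the highest tested genes by the mean of both groups were Rps14, Rps27, Rps15a and Rps18, all of the small subunit.

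**Figure D1:**
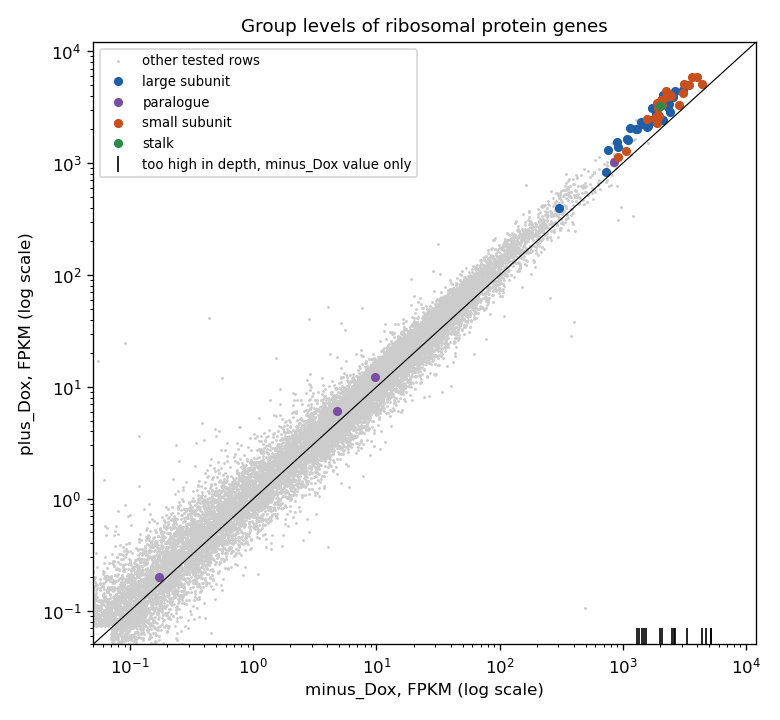
FPKM of each tested row in minus_Dox (x axis, log scale) and plus_Dox (y axis, log scale), with ribosomal protein genes coloured by role and the diagonal marking equal values as deposited. The 60 tested genes lie above the diagonal, a position that turns for 59 of them when the groups are scaled to equal summed FPKM of all tested rows, and ticks on the x axis mark 15 genes with a minus_Dox value only.

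Many of the most abundant members have no comparison. The authors' software marked 20 of the 80 rows (25%) as too deep to process, against 0.267% of all rows, and ribosomal protein genes made up 20.4% of the 98 rows so marked. A value of 0 there is a failed estimate and not absence. Rps2, Rps3, Rpl4, Rpl13a (its row also names Flt3l) and Rpsa, which doubles as a laminin receptor, are listed at 0 in both groups. The other 15 are listed at 0 in plus_Dox and at 1306 to 5251 FPKM in minus_Dox, with a median of 2508. They include the 3 highest minus_Dox values of the family, which were 5251 FPKM for Rps12, 5243 FPKM for the stalk protein Rplp1 and 4776 FPKM for Rps24. Rpl41, the smallest ribosomal protein, was at 4374 FPKM. The others were Rpl12, Rpl7, Rpl18, Rps4x, Rpl19, Rpl8, Rps6 (the substrate that names S6 kinase), Rpl3, Rplp0, Rpl5 (which carries 5S ribosomal RNA) and Rpl6. Over all 20 genes without a comparison, transcripts were longer, with a median of 1202.5 nt against 857.5 nt for the 56 tested genes. The comparison of the groups therefore leaves out these deeply covered members.

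All 60 tested genes had the higher value in plus_Dox in the authors' deposited table, and 29 rose at a q-value under 0.05 while 0 fell, a direction that turned for 59 of the 60 when the groups were scaled to equal summed FPKM of all tested rows. Across all 18114 tested rows 8.98% rose and 3.22% fell, and 65.1% of the 17830 with a fold were higher in plus_Dox. The rises were small. They ranged from 1.42-fold to 1.98-fold, 27 reached 1.5-fold and 0 reached 2-fold. The median log2 fold of the 60 was 0.56, beside 0.20 over all tested rows. The 31 genes that did not pass had log2 folds of 0.17 to 0.68, and 45 of the 60 had an unadjusted p under 0.05, as did 23.3% of all tested rows. The implied SE had a median of 0.19 on the log2 scale, so neighbours in the order of folds do not differ beyond their error.

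**Figure D2:**
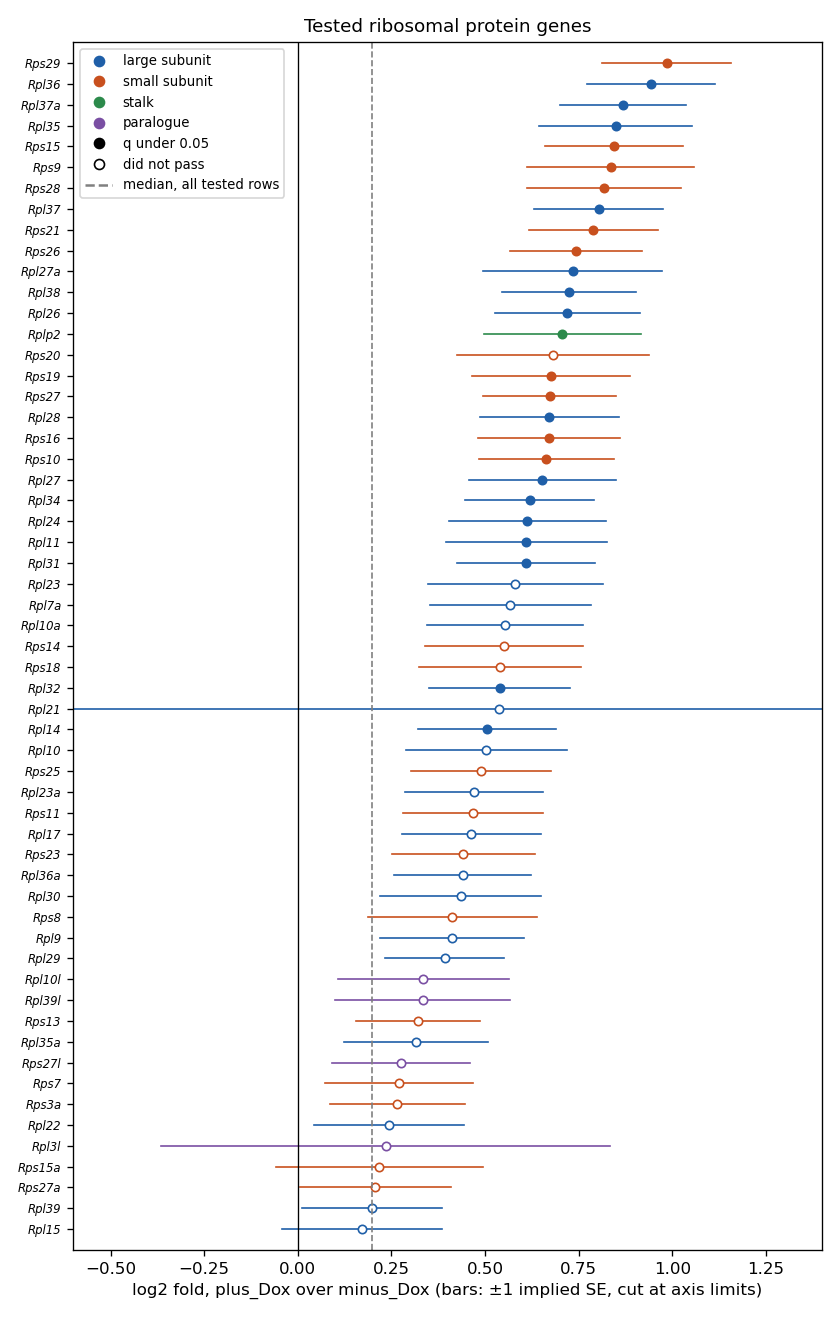
log2 fold of plus_Dox over minus_Dox (x axis) for 57 of the 60 tested genes in order of size (y axis), coloured by role, with bars of 1 implied SE. Filled points are the 26 drawn genes with q under 0.05, all 57 lie right of 0 as deposited (56 lie left of it under equal summed FPKM of all tested rows), and the dashed line is the median of 0.20 over all tested rows.

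In the large subunit, 31 of 42 genes were tested, 16 rose and 0 fell, with a median log2 fold of 0.57. Rpl36 (chr17:56752817-56753666, mm9) went from 2121 to 4079 FPKM. This log2 fold of 0.94 (SE 0.17, q = 4.33e-06 in the authors' deposited table) corresponds to 1.92-fold with a 95% interval of 1.52 to 2.43. Rpl37a stood at 1137 FPKM in minus_Dox and 2075 FPKM in plus_Dox, a log2 fold of 0.87 in the authors' deposited table. Rpl35, which sits near the exit of the peptide tunnel, was at 1714 and 3087 FPKM. Rpl37 (757 and 1322 FPKM) and Rpl38 (2318 and 3830 FPKM), whose loss disturbs the axial skeleton of mice, also rose. Rpl11, which with Rpl5 binds Mdm2 and links ribosome assembly to p53, was at 2560 and 3908 FPKM and rose with a log2 fold of 0.61 (q = 0.0397 in the authors' deposited table). The lowest folds in this subunit belonged to Rpl15 (737 and 830 FPKM), Rpl39 (2113 and 2424 FPKM), a protein of the exit tunnel, and Rpl22 (2421 and 2867 FPKM), none of which passed. Rpl21 had a log2 fold of 0.54 but an implied SE of 1.97 in the authors' deposited table, and the table holds 12 tested rows of Rpl21 pseudogenes. Whether reads shared with these copies set that error was not tested.

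Of the 3 stalk proteins only Rplp2 could be compared. It stood at 2003 FPKM in minus_Dox and 3270 FPKM in plus_Dox, and rose with a log2 fold of 0.71 (SE 0.21, q = 0.0105 in the authors' deposited table).

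In the small subunit, 24 of 31 genes were tested, 12 rose and 0 fell, with a median log2 fold of 0.67. Rps29 (chr12:70258708-70260173, mm9), a zinc-binding protein of the subunit's head, had the highest fold of the family at 2224 and 4404 FPKM. Its log2 fold was 0.99 (SE 0.17, q = 1.5e-06 in the authors' deposited table), or 1.98-fold with a 95% interval of 1.57 to 2.50. Rps15 (2310 and 4149 FPKM), Rps9 (2051 and 3661 FPKM) and Rps28 (2003 and 3533 FPKM) also rose, with log2 folds between 0.82 and 0.84 in the authors' deposited table. Rps19, the gene most often mutated in Diamond-Blackfan anaemia, went from 2470 to 3947 FPKM and rose with a log2 fold of 0.68. Rps14, lost in the 5q- syndrome, was at 3982 and 5833 FPKM and did not pass (q = 0.0679 in the authors' deposited table). Rps27a, made as a fusion to ubiquitin, was at 2888 and 3334 FPKM, and Rps15a at 4398 and 5116 FPKM. These were the lowest folds in the small subunit, 0.21 and 0.22 on the log2 scale, and neither passed.

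The 4 divergent copies inside the symbol rule lay far apart in level, and 0 of 4 rose, with a median log2 fold of 0.30. Rps27l was at 850 and 1029 FPKM, 4.32 times below its parent Rps27 in minus_Dox. Rpl39l, known from testis, was at 9.74 and 12.3 FPKM, and its parent Rpl39 was 217 times higher in minus_Dox. Rpl10l, which replaces X-linked Rpl10 in male germ cells, was at 4.80 and 6.05 FPKM, and Rpl10 was 493 times higher. Rpl3l, the copy of striated muscle, was at 0.170 and 0.200 FPKM. Rpl36al, a copy of Rpl36a whose symbol falls outside the rule, was at 583 and 820 FPKM and rose with a log2 fold of 0.49 in the authors' deposited table. The coding sequences of Rpl39 and Rpl39l (GENCODE vM21), shown because this pair is the shortest, differ at 23 of 156 bases, which are in capitals.
Rpl39: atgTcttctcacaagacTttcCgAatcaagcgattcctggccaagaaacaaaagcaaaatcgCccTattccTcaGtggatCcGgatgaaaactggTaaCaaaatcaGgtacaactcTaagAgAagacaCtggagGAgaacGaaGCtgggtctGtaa
Rpl39l: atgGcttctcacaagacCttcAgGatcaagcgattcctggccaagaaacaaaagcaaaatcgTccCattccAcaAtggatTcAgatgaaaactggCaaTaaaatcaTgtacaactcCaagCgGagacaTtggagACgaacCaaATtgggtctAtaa
The 2 are identical at 85.3% of positions, Rpl10 and Rpl10l at 84.8%, and Rps27 and Rps27l at 77.1%. The sources used here do not say how reads common to both copies were divided, so the low values of Rpl39l and Rpl10l are uncertain.

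Folds across the table moved with transcript length and GC content, and the ribosomal protein genes are short. The 60 tested genes had a median longest transcript of 857.5 nt, against 2658.5 nt over all tested rows, and a median GC content of 51.3% against 50.3%. Among tested rows that reached 1 FPKM in either group, Spearman's rho of the log2 fold was -0.46 with length and 0.65 with GC content. Among the 60 genes it was -0.32 and 0.43. These correlations are across genes, which share the libraries and are not replicates. In transcripts of up to 600 nt, 14 ribosomal protein genes had a median log2 fold of 0.72 and 492 other rows one of 0.62. Between 600 and 900 nt the medians were 0.55 for 19 genes and 0.53 for 510 other rows, and between 900 and 1200 nt 0.57 for 14 genes and 0.51 for 582 other rows. The share that rose differed more, at 9 of 14 genes against 21.1% of other rows up to 600 nt, 9 of 19 against 36.5% between 600 and 900 nt, and 8 of 14 against 34.0% between 900 and 1200 nt. The other rows had to reach only 1 FPKM and were not matched to the family in level or SE. A share of calls depends on the SE as well as on the fold. In longer transcripts, which few of the family have, the medians lay further apart. They were 0.51 for 8 genes and 0.40 for other rows between 1200 and 2000 nt, and 0.41 for 3 genes and 0.20 for other rows between 2000 and 4000 nt. Above 4000 nt the 1 gene, Rps15a, was at 0.22 and the median of other rows at -0.05. These differences within bins were not tested. Within bins of GC content the family stood higher, at 0.50 against 0.18 between 48% and 52%, and at 0.66 against 0.38 between 52% and 56%.

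**Figure D3:**
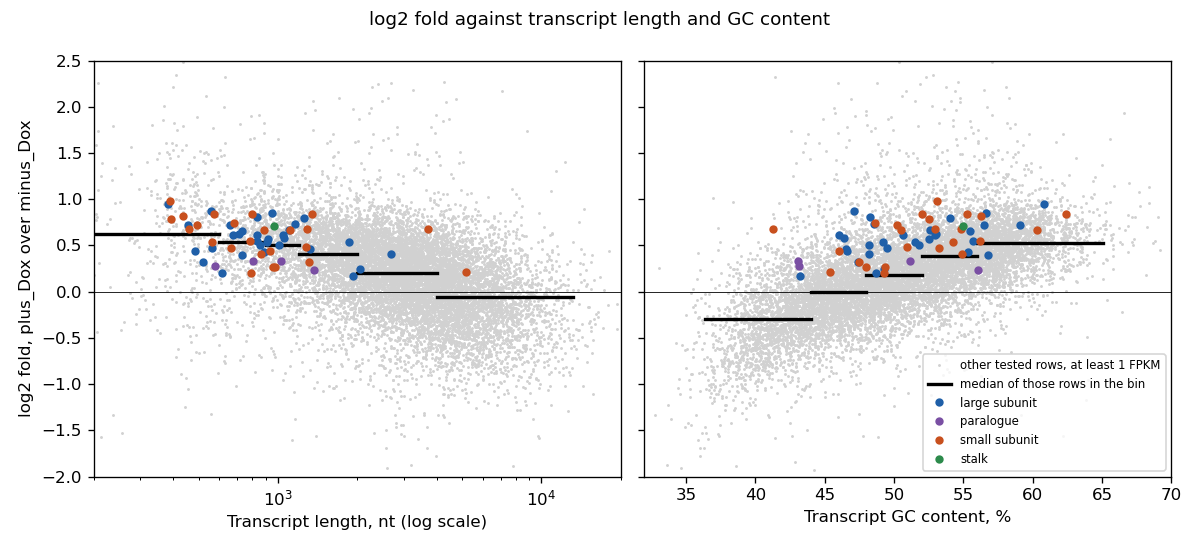
log2 fold as deposited (y axis) against longest transcript length in nt (left, log scale) and transcript GC content in percent (right), with other tested rows of at least 1 FPKM in grey, their median in each bin as a black line, and ribosomal protein genes coloured by role. In the shortest bin the grey rows have a median of 0.62 and the ribosomal protein genes one of 0.72.

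When a smooth trend on GC content and length, fitted over 11854 rows, was subtracted, the median log2 fold of the 60 genes was 0.05, with 38 above the trend and 22 below. At q under 0.05, 1 gene lay above the trend and 0 below, beside 1.23% and 0.949% of 16974 rows. Of the 60 genes, 41 lay within 1 implied SE of the trend. With length alone in the trend, 0 genes passed in either direction at q under 0.05, beside 1.86% of rows higher and 3.54% lower, and the median was 0.06. With GC content alone, 6 genes were higher (Rpl37a, Rpl37, Rpl31, Rps29, Rps26 and Rps20) and 0 lower, beside 1.53% and 1.41% of rows, and the median was 0.28. With the shortest principal transcript of each gene in place of the longest, 1 gene (Rps20) was higher and 0 lower, beside 1.2% and 1.23% of rows. For Rps20 both choices have the same length, 3706 nt, and the same GC content. This setting therefore changes only the fitted trend for Rps20 and is not a separate check of it. The gene above the trend of both properties was Rps20, a protein of the small subunit's head, at 1924 and 3085 FPKM, with a log2 fold of 0.68 (q = 0.0587 in the authors' deposited table). Its log2 fold above the trend was 0.97 (q = 0.0108), and it rests on a reference transcript of 3706 nt, far longer than the others of its subunit except Rps15a. Whether Lef1, the drug or the composition of the libraries underlies the rise was not tested.

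Over tested rows that reached 1 FPKM, the median log2 fold was 0.20. Subtracting it left 13 genes higher and 0 lower at q under 0.05, where 3.47% of all rows were higher and 6.1% lower. The median of the 60 was then 0.36, and 58 were above 0 and Rpl15 and Rpl39 below. Scaling to equal summed FPKM of protein-coding rows left 3 genes higher and 0 lower, beside 1.59% and 11.2% of rows. Scaling to equal summed FPKM of all tested rows left 0 higher and 23 lower, beside 0.466% and 46.6% of rows, with 1 row, Gm10180, holding 45.6% of that sum in minus_Dox.

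**Figure D4:**
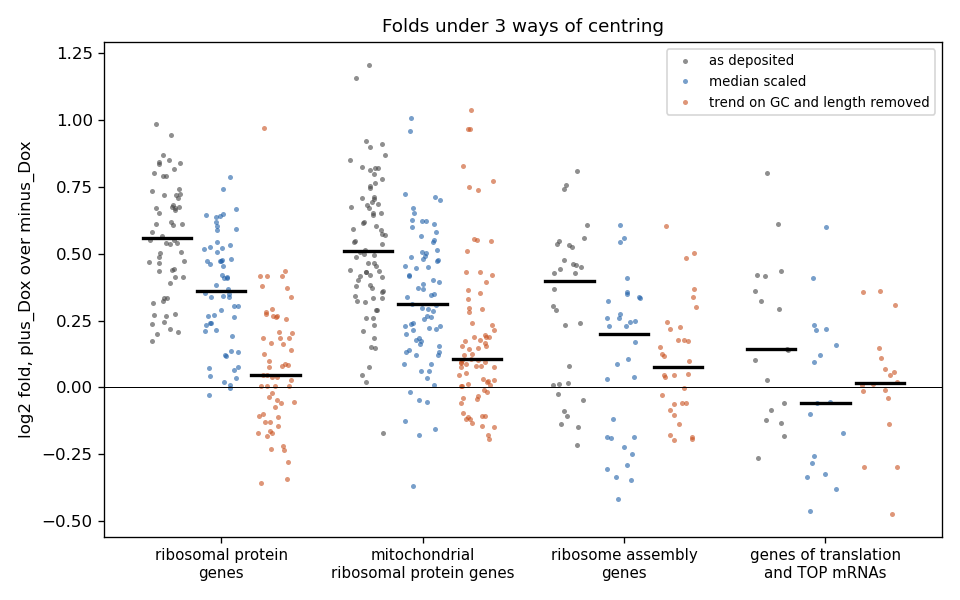
log2 fold of plus_Dox over minus_Dox (y axis) for tested genes of 4 groups, as deposited (grey), after median scaling (blue) and with the trend on GC content and length removed (orange), each point a gene and each black line a median. The median of the ribosomal protein genes goes from 0.56 to 0.36 and 0.05, and it is -0.38 under equal summed FPKM of all tested rows, which is not drawn.

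Other genes of the ribosome and of its making were read from lists. Of the ribosomal proteins outside the symbol rule, 2 of 4 tested rows rose, beside 8.98% of all tested rows. Fau, whose product is cut into a ubiquitin-like protein and a small-subunit protein, was at 1289 and 2452 FPKM, a log2 fold of 0.93 in the authors' deposited table. Rpl22l1 (746 and 707 FPKM) and Rpl7l1 (87.2 and 97.2 FPKM) did not pass, and Gnb2l1, the scaffold Rack1, was too deep for a comparison.

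Of 18 tested translation genes of other kinds, many with TOP mRNAs, 2 rose and 0 fell, with a median log2 fold of 0.14. This share lies near the 8.98% of all tested rows that rose, and the difference from the ribosomal protein genes was not tested. The 2 were Eef1d, an exchange factor of elongation (427 and 744 FPKM), and Eif3k, a subunit of an initiation factor (364 and 555 FPKM). Pabpc1, the poly(A)-binding protein, was at 513 and 453 FPKM and did not pass, and Eef1a1, Eef2, Eif4a1, Npm1 and Tpt1 are listed at 0 in both groups as too deep. Of 32 tested ribosome assembly genes, 8 rose and 0 fell, beside 8.98% and 3.22% of all tested rows, with a median of 0.40. Nhp2, of the particles that pseudouridylate ribosomal RNA, was at 297 and 521 FPKM, Eif6, which keeps free large subunits from joining, at 123 and 208 FPKM, and Bop1 at 49.1 and 82.3 FPKM. None of the 32 passed in either direction with the trend removed, where 1.23% of rows were higher and 0.949% lower.

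Of 19 tested genes of RNA polymerases I and III and their factors, Polr1c (108 and 165 FPKM) and Polr1d (123 and 180 FPKM), subunits that both enzymes share, rose, and 0 fell. The share of 2 of 19 lies near the 8.98% of all tested rows that rose. Also near that percentage, 1 of 14 tested genes rose in the list of mTOR signalling and TOP control. This was Eif4ebp1, a repressor of cap-dependent initiation that mTOR inactivates, at 141 and 275 FPKM, with a log2 fold of 0.97 (q = 1.67e-07 in the authors' deposited table). It was also above the trend on GC content and length, by 0.77 on the log2 scale. Larp1, which binds TOP motifs, was at 39.7 and 41.9 FPKM and did not pass.

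The proteins of the mitochondrial ribosome are a separate family, and all 76 of their rows were tested. Of these 29 rose and 0 fell, beside 8.98% and 3.22% of all tested rows. Their median log2 fold was 0.51, close to the 0.56 of the cytosolic family. The difference between the families was not tested. With the trend removed 6 of the 76 passed, all higher, beside 1.23% of rows higher and 0.949% lower. The 6 were Mrpl51, Mrps5, Mrps25, Mrpl17, Mrps16 and Mrps14.

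Pseudogene copies of ribosomal protein genes had 163 rows, of which 125 were tested, and 123 of these name a parent within the family. They were low, with a median of 0.61 FPKM in minus_Dox. Of the 125, 26 rose and 1 (Rpl17-ps3) fell, beside 8.98% and 3.22% of all tested rows, with a median log2 fold of 0.94. This median rests on low values: it was 0.34 as a difference of log2(FPKM + 1) and 0.49 over rows of at least 5 FPKM in the higher group, of which 11 rose. With the trend removed 3 were higher and 3 lower, beside 1.23% and 0.949% of rows, and the median was 0.31. Reads from the abundant parents can be assigned to such copies, so these rows are uncertain.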

How the data were processed

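The data are 1 deposited table with the layout of Cuffdiff's gene-level output, covering 3 minus_Dox and 3 plus_Dox libraries. Groups were taken from the sample titles. Per the submitters' processing notes, build mm9 was used with Cuffdiff, Cufflinks 2.0.2, Picard, Bowtie and TopHat2 2.0.8, with no role named for any, and the sources used here give no gene annotation. Per the file headers, the authors computed an FPKM value per group, a log2 fold of plus_Dox over minus_Dox, a test statistic (a score), and for each tested row a q-value beside the p-value. In the deposited log2 fold column, rows with 0 in 1 group hold a placeholder and were not used as folds. It has 0 columns for single libraries. The authors' q-value under 0.05 was the test, and no model could be fitted to samples. Depth is unknown and no counting interval was computed.

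The SE is the size of the log2 fold divided by that of the statistic, and 95% intervals come from it. Alternatives subtracted a median, a ratio of summed FPKM, or a least-squares cubic spline trend (6 knots, rows of at least 1 FPKM), and recomputed two-sided normal p-values with Benjamini-Hochberg adjustment over all rows. This was tested on simulated data. With the SEs as implied, the match of fitted and simulated trend fell short of the limit set for it. It passed once the SE of a simulated row was limited to 1. The SEs of the data were not limited, so the passing test differs from the data in this. Lengths and GC content came from the longest basic transcript in GENCODE vM21 (80 of 80 genes and 95.2% of tested rows with a fold). Promoters were matched by symbol to RefSeq (GRCm38.p6), and coordinates of genes are those of the table. Python 3.11.15, pandas 2.3.3, scipy 1.17.1, scikit-learn 1.9.0 and biopython 1.88 were used.

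The members and lists were chosen with earlier results of these data known. Named genes were those without a comparison, the 8 largest rises with at least 5 FPKM, the 5 highest and 5 lowest by mean, the 2 largest folds per role, divergent copies with their parents, genes past the threshold with the trend removed, joined rows, up to 3 calls per other list, and Lef1. Some genes that the rule selects are counted but not reported here by name. Other genes were named after their values were seen.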

Additional observations from a re-analysis of the deposited data

How the results depend on the processing

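The direction of the family depends on how the groups are scaled, and its calls on the scaling and on the correction for length and GC content. Of the 60 tested genes 29 rose, and the count kept within 1.5 times of this at q under 0.01 (20) and 0.1 (41), at 1.5-fold (27), at 5 FPKM, without joined rows and without divergent copies. It was 0 at 2-fold, 13 with median scaling, 1 with the trend on GC content and length removed, 0 with length alone, 6 with GC content alone, and, in alternatives chosen after seeing the data, 1 with the shortest principal transcript, 3 with equal summed FPKM of protein-coding rows and 0 with equal summed FPKM of all tested rows. The median log2 fold in these settings was 0.36 (median scaling), 0.046 (both properties), 0.064 (length), 0.28 (GC content), 0.025 (shortest transcript), 0.18 (protein-coding sum) and -0.38 (sum of all rows). With the last, 23 genes fell, beside 46.6% of all rows, and 0.466% rose. In that sum 1 row, Gm10180, with a transcript of 78 nt, holds 45.6% in minus_Dox and 42.9% in plus_Dox. Its own log2 fold was 0.86 and did not pass (SE 0.66, q = 0.495 in the authors' deposited table). The scaling by that sum subtracted a larger log2 ratio, 0.94. Under it the medians were -0.38 for the large subunit, -0.28 for the small subunit, -0.43 for mitochondrial ribosomal protein genes and -0.0088 for pseudogene rows, and 20 of 21 named tested genes turned: Rpl10 -0.44, Rpl10l -0.61, Rpl15 -0.77, Rpl29 -0.55, Rpl35 -0.096, Rpl36 -0.00095, Rpl37a -0.076, Rpl39 -0.75, Rpl39l -0.61, Rpl3l -0.71, Rplp2 -0.24, Rps14 -0.39, Rps15 -0.1, Rps15a -0.73, Rps18 -0.40, Rps20 -0.26, Rps27 -0.27, Rps27l -0.67, Rps28 -0.13 and Rps9 -0.11. With length alone removed 9 turned: Rpl10 -0.018, Rpl10l -0.14, Rpl15 -0.15, Rpl29 -0.16, Rpl39 -0.39, Rpl39l -0.20, Rpl3l -0.17, Rps18 -0.063 and Rps27l -0.32. With both properties removed 9 turned: Rpl10l -0.11, Rpl29 -0.36, Rpl39 -0.28, Rpl3l -0.34, Rps14 -0.16, Rps15 -0.036, Rps18 -0.18, Rps27 -0.11 and Rps28 -0.023. With the shortest transcript 11 turned: Rpl10l -0.054, Rpl15 -0.38, Rpl29 -0.41, Rpl39 -0.22, Rpl39l -0.020, Rpl3l -0.31, Rplp2 -0.083, Rps14 -0.13, Rps15a -0.085, Rps18 -0.13 and Rps27l -0.012. With the protein-coding sum 7 turned: Rpl10l -0.042, Rpl15 -0.20, Rpl39 -0.18, Rpl39l -0.044, Rpl3l -0.14, Rps15a -0.16 and Rps27l -0.10. Median scaling turned Rpl15 (-0.028) and Rpl39 (-0.0018), and GC content alone Rpl29 (-0.11) and Rpl3l (-0.24). The cause of these changes was not tested. No paired analysis was possible because the table has no columns of single libraries, and for the same reason no library could be left out.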

Other observations

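Rps4y2, the symbol under which the table lists a copy of the small-subunit gene Rps4x, falls outside the symbol rule and was picked after its values were seen. It stood at 228 FPKM in minus_Dox and 415 FPKM in plus_Dox, a log2 fold of 0.86 (SE 0.16, q = 7.42e-06 in the authors' deposited table). Its parent Rps4x is one of the rows too deep for a comparison, with 2508 FPKM in minus_Dox. How reads were divided between both was not tested.

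Of the 80 ribosomal protein genes, 37 share their locus text with at least 1 other row, so that the table places more than 1 gene in the same interval. The 80 genes lie on 19 chromosomes.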
